A study of Mus musculus with 20 samples.

Results

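The AMPK subunit genes are the 7 mouse genes that encode the catalytic alpha subunits (Prkaa1, Prkaa2), the scaffold beta subunits (Prkab1, Prkab2) and the regulatory gamma subunits (Prkag1, Prkag2, Prkag3) of AMP-activated protein kinase. They were taken from the deposited count table by gene symbol, 7 of its 21844 genes, and all 7 passed the filter on low counts that kept 14359 genes for testing. RNA had been sequenced from mouse hindlimb muscle in 20 libraries, 5 in each of 4 groups. Every mouse, vehicle-treated ones included, had the genotype Cre+:iMSBmal1 fl/fl, that is, a floxed gene for the clock transcription factor BMAL1 and an inducible Cre that acts in muscle. The vehicle sedentary group (Vehicle + No Exercise) kept the floxed gene, and the knockout sedentary group (iMSBmal1KO + No Exercise) was induced to lose it in muscle. The vehicle trained and knockout trained groups had the same 2 treatments plus 6 weeks of daily treadmill running. The labels put collection 48 hours post, while the series design states 47 hours after the last bout. They name both the gastrocnemius and the tibialis anterior as the tissue, and neither the age of the mice, the inducing agent nor the promoter that drives Cre is given in them. They also do not say whether the libraries of a group came from separate mice, so p-values measure only the spread between these samples.

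AMPK is the energy sensor of the muscle fibre. It works as a trimer of an alpha subunit, which holds the kinase domain, a beta subunit, which binds glycogen and joins the other subunits, and a gamma subunit, which binds AMP, ADP and ATP and passes on a fall in energy charge. Contracting muscle activates it, and trimers that contain the gamma subunit encoded by Prkag3 are known from glycolytic muscle fibres.

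Total estimated counts per library lay between 10610333 and 19153527. Knockout-trained libraries 1 and 4, and likewise 3 and 5, were near identical and each pair was counted as 1 sample, which leaves n = 3 in that group and 18 samples in all. The variance within these pairs was 1.76 to 2.38 times that of count sampling. Its ratio of high to low counts was 1.25 for libraries 1 and 4 and 0.873 for 3 and 5, against 2.31 or more in every other pair. Vehicle-trained library 2 stood apart: of the 14359 tested genes, 3728 departed there by over 2-fold from the average of the remaining vehicle-trained libraries, so the main results are given with and without it. Arntl, the gene for BMAL1, had higher values, not lower, in sedentary libraries with the knockout label (12.5 ± 2.96 against 6.66 ± 0.694 TMM-scaled CPM, SD, n = 5 each). In trained muscle the order depended on vehicle-trained library 2, which had 141.9 CPM: the knockout samples were at 11.4 ± 3.75 (n = 3), the 5 vehicle libraries at 33.6 ± 60.5, and the 4 without library 2 between 5.96 and 6.91. Counts over a whole gene also take in reads outside the floxed part, so this value does not check the labels. Why Arntl was higher was not tested. Clock, also chosen to check the labels, was at 75.5 ± 6.48 in knockout and 32.8 ± 1.69 TMM-scaled CPM in vehicle sedentary libraries (edgeR adjusted p = 0.000166). In trained muscle it was at 61.8 ± 13.2 and 37.9 ± 11.2 (edgeR adjusted p = 0.0368). So Clock differed between the labels, which does not show the loss of Bmal1 itself. In what follows "knockout" means the libraries labelled so. Of the 5 defining skeletal muscle markers none was at 0 in any group. Their summed level was 34510 to 45180 plain CPM (without TMM scaling) in all samples but vehicle-trained library 2, where it was 28880. In bulk muscle RNA, fewer cells of a type and less RNA per cell cannot be told apart.

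BMAL1 binds the E-box, so the start sites of the 7 genes were searched for that motif in RefSeq windows of 300 bases, from 250 before to 50 after each start (mouse build GRCm38.p6). All 7 genes matched the table, with 9 windows, since Prkag2 has 3 start sites. None of the 9 held the E-box CACGTG, which 7.15% of all 32851 windows held, and none held the D-box TTATGTAA of other clock factors, which 0.938% held. The GC box GGGCGG, read on both strands, was in 6 of the 9 and in 35.7% of all windows. The 250 bases before the start are printed for Prkaa2 and Prkab2, the alpha and beta genes with the higher transcript levels, and for Fnip1, an AMPK partner gene described further on whose window does hold the E-box, 75 bases before the start. Tbc1d1, the other gene of the AMPK lists called in both knockout comparisons, has 2 windows and neither holds it. Capitals mark the GC box, on either strand, and the E-box of Fnip1; no marked motifs overlap in them. A match, or its absence, says only which letters stand in these windows.
Prkaa2 (chr4:105109899-105110148, minus strand): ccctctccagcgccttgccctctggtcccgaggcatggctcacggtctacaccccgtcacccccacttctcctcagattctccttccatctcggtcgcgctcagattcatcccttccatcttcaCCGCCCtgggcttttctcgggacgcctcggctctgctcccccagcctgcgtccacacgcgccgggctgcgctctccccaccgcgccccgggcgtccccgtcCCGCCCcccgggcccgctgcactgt
Prkab2 (chr3:97657962-97658211, plus strand): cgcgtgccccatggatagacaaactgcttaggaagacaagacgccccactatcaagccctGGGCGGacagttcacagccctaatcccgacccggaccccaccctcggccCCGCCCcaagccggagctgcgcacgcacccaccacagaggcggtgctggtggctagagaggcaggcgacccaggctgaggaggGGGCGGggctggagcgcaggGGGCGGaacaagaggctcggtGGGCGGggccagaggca
Fnip1 (chr11:54437929-54438178, plus strand): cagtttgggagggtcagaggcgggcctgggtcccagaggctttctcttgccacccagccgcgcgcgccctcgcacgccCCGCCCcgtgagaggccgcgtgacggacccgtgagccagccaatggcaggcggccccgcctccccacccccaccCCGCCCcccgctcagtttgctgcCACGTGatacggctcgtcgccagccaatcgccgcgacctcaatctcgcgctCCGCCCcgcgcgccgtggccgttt

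Set on a common scale per transcript length (TPM, from the summed exon length of each gene), the 7 transcripts spanned from 3.66 ± 0.735 TPM for Prkag2 to 152.7 ± 16.3 TPM for Prkab2 in the vehicle sedentary group (SD, n = 5). Prkab2, Prkag3 (148.6 ± 21.1 TPM) and Prkaa2 (108.8 ± 13.4 TPM) were the 3 highest there, with overlapping ranges between neighbours, and were the 3 highest in each of the other groups too. Prkag1 followed at 36.2 ± 2.00 TPM, Prkaa1 at 10.7 ± 0.870 TPM and Prkab1 at 7.53 ± 0.507 TPM. From Prkaa2 downwards no neighbouring ranges overlapped in the 2 sedentary groups on summed exon lengths. The order of Prkaa1 and Prkab1 depends on the length used. For Prkab1 the summed exons have 3066 bases and the longest transcript 2089, while for Prkaa1 both have 4655. In both trained groups the ranges of Prkaa1 and Prkab1 overlapped (in vehicle trained muscle 5.37 to 12.3 TPM and 5.56 to 8.79 TPM). Among the top 3, the mean of Prkag3 stood above that of Prkab2 in both knockout groups and under it in both vehicle groups, with ranges that overlapped in all 4. This order rests on the summed exon lengths (3682 bases for Prkag3, 5096 for Prkab2). Their longest transcripts have 2832 and 5006 bases. The order thus depends on the length used and is not read as a difference between genotypes.

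**Figure D1:**
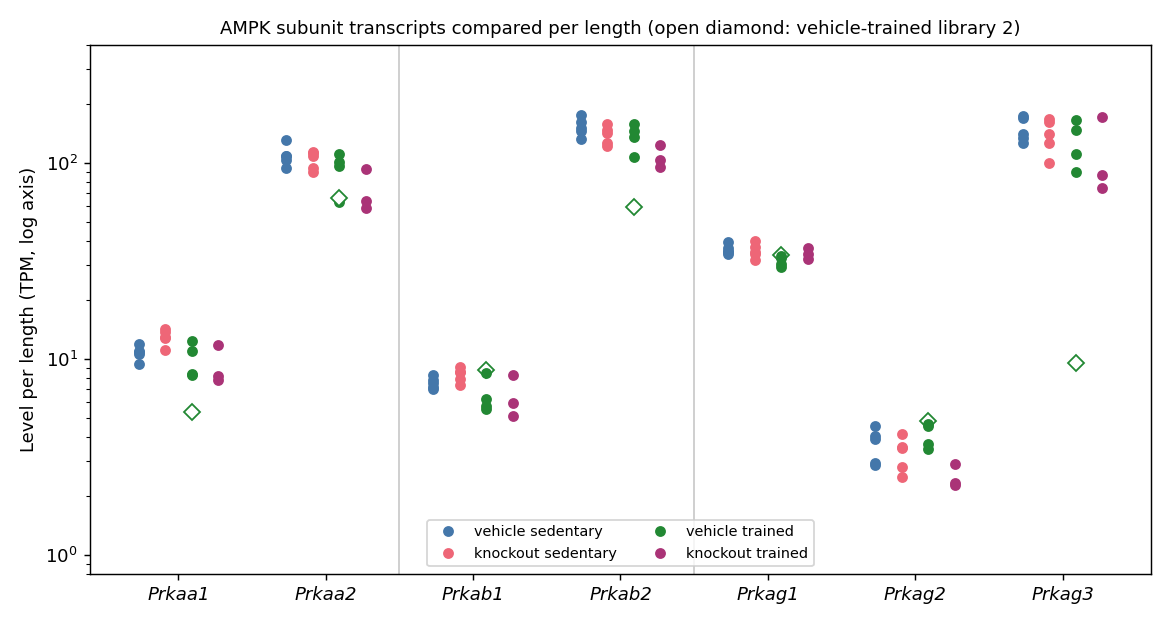
Level per transcript length (TPM, log axis) of the 7 AMPK subunit transcripts, grouped as alpha, beta and gamma genes. Each point is 1 sample, coloured by group, and the open diamond is vehicle-trained library 2; Prkab2, Prkag3 and Prkaa2 stand above 58 TPM everywhere except for Prkag3 in that library, at 9.48 TPM.

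The catalytic subunit genes come first, compared between groups on the scale of TMM-scaled CPM, written CPM from here on. Prkaa2, which encodes the alpha isoform that dominates in muscle fibres, was at 483.3, 403.3, 395.7, 347.1 and 435.6 CPM in the 5 vehicle sedentary libraries. It was at 341, 399.1, 349, 387.9 and 401.6 CPM in the knockout sedentary libraries. The ranges overlapped, and the fitted difference was -0.14 log2 units (SE 0.137, 95% interval -0.43 to 0.15, edgeR adjusted p = 0.928, or 0.647 without vehicle-trained library 2). Trained levels were 272.3, 283.8, 442.7, 396.1 and 423.5 CPM in the vehicle libraries and 293.1, 307.9 and 347.7 CPM in the 3 knockout samples. The vehicle-trained libraries split into 2 low and 3 high values, and the 3 knockout-trained samples fell between them.

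Prkaa1, the gene for the more widely expressed alpha isoform, was at 25.7, 23.8, 24.2, 22.8 and 22.2 CPM in vehicle sedentary and at 30.0, 26.2, 25.2, 26.9 and 28.7 CPM in knockout sedentary libraries. The groups overlapped by the highest vehicle library and the lowest knockout library only. The fitted difference was 0.20 log2 units (SE 0.136, 95% interval -0.08 to 0.49, edgeR adjusted p = 0.791), and 0.21 (adjusted p = 0.160) without vehicle-trained library 2, which enters through the shared estimate of spread. In trained muscle Prkaa1 lay between 21.1 and 27.0 CPM in 4 vehicle libraries, at 13.5 CPM in vehicle-trained library 2, and between 22.7 and 25.6 CPM in the knockout samples.

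The balance between the alpha genes was read from their ratio per length. Prkaa2 over Prkaa1 was 10.2 ± 1.05 in vehicle sedentary muscle (8.91 to 11.5, SD, n = 5) and 8.04 ± 0.847 in knockout sedentary muscle (6.63 to 8.89, n = 5). These ranges stood just apart, at 8.89 and 8.91. Among single genes, 8.68% of all tested did not overlap in this comparison, and no such share was computed for ratios. In trained muscle the ratio was 9.92 ± 1.95 (7.52 to 12.3, n = 5) against 7.76 ± 0.193 (7.54 to 7.92, n = 3), with overlap, and the vehicle mean was 9.34 without vehicle-trained library 2. The other paralog ratios computed, in the beta and gamma classes, overlapped between the sedentary groups. In trained muscle Prkag1 over Prkag2 did not (7.06 to 8.45 in vehicle, 11.1 to 15.7 in knockout). All these ratios were computed from levels already seen and carry no test.

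The scaffold genes showed the same inequality between paralogs. Prkab2 was at 382.6, 344, 367.4, 314.3 and 450.6 CPM in vehicle sedentary and at 292.8, 328.8, 303.6, 324.5 and 358.2 CPM in knockout sedentary libraries. The upper 3 vehicle libraries exceeded every knockout library, but the remaining 2 did not, and the fitted difference of -0.21 log2 units did not pass the test (SE 0.176, 95% interval -0.58 to 0.16, edgeR adjusted p = 0.890, or 0.303 without vehicle-trained library 2). In trained muscle Prkab2 was at 293.3, 401.9, 359.9 and 391.4 CPM in 4 vehicle libraries, at 164.8 CPM in vehicle-trained library 2 and at 295.9, 303.4 and 320.1 CPM in the knockout samples. Prkab1 stayed between 9.46 and 12.4 CPM in every sample except vehicle-trained library 2, where it reached 14.6 CPM. Its fitted differences in the 4 pairwise comparisons ran from -0.09 to 0.07 log2 units, all with intervals that included 0.

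Among the gamma genes, Prkag2 had the lowest levels per length and was the member whose groups separated. In trained muscle it was at 15.8, 16.9, 13.02, 13.4 and 12.7 CPM in the vehicle libraries (14.4 ± 1.87, SD, n = 5) and at 7.08, 8.96 and 11.7 CPM in the knockout samples (9.26 ± 2.34, n = 3). Every knockout sample was lower than every vehicle library, with or without vehicle-trained library 2. Such separation in either direction was seen in 8.96% of all tested genes in this comparison (15.9% without that library), and in 1 of the 7 members. The fitted difference was -0.65 log2 units (SE 0.208, 95% interval -1.09 to -0.22), and it did not pass the test (edgeR adjusted p = 0.102). Without vehicle-trained library 2 it was -0.59 (adjusted p = 0.0856), while DESeq2 on the same 18 samples gave an adjusted p of 0.0401. These values rest on 71 to 141 estimated counts per knockout-trained library and 190 to 250 per vehicle-trained library.

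In sedentary muscle Prkag2 was at 8.68, 8.86, 14.2, 12.2 and 12.8 CPM in vehicle and at 10.4, 11.8, 11.2, 8.14 and 7.22 CPM in knockout libraries. The groups overlapped widely (fitted difference -0.22 log2 units, 95% interval -0.60 to 0.15). Whether the knockout difference was larger after training was tested by the interaction term, which was -0.43 log2 units (SE 0.272, 95% interval -1.002 to 0.14, edgeR adjusted p = 0.700), or -0.37 (adjusted p = 0.633) without vehicle-trained library 2. In the GENCODE annotation (build GRCm38) Prkag2 lies at chr5:24862744-25100642 on the minus strand, and 937 of its 6480 exonic bases also belong to antisense genes, Prkag2os1 and Prkag2os2. Since strandedness is not given in the sources used here, reads from those bases cannot be assigned to either strand's gene.

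Prkag1, the gene for the widely expressed gamma isoform, stayed between 32.5 and 44.9 CPM in all samples. It was at 36.9, 38.2, 33.8, 34.0 and 33.4 CPM in knockout sedentary libraries and at 37.3, 43.8 and 44.9 CPM in knockout trained samples. The lowest trained sample lay within the sedentary range and the other 2 above it. The fitted training difference in knockout muscle was 0.24 log2 units (SE 0.0995, 95% interval 0.03 to 0.45) and did not pass the test (edgeR adjusted p = 0.430, or 0.145 without vehicle-trained library 2). The vehicle groups, at 35.5 to 40.3 CPM sedentary and 32.5 to 40.0 CPM trained, gave -0.04 (95% interval -0.22 to 0.14), and the interaction was 0.28 (95% interval 0.0019 to 0.56, edgeR adjusted p = 0.661), or 0.32 (adjusted p = 0.335) without that library. Prkag1 lies at chr15:98812797-98831521 on the minus strand, and 950 of its 2175 exonic bases are shared with the antisense gene B130046B21Rik, so the same limit on strand holds.

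Prkag3, the gamma gene of glycolytic fibres, was at 291.2, 217.9, 236, 240.7 and 320.4 CPM in vehicle sedentary and at 280.5, 228.1, 179.2, 209.4 and 265.5 CPM in knockout sedentary libraries. The ranges overlapped over most of their length. In trained muscle it was at 179.5, 235.9, 271.4 and 286.1 CPM in 4 vehicle libraries and at 171.4, 192.5 and 294.5 CPM in the knockout samples. Vehicle-trained library 2 had 18.9 CPM. Every Prkag3 interval was narrower without that library: the knockout difference in trained muscle was 0.14 log2 units (95% interval -0.86 to 1.14) with it and -0.15 (95% interval -0.57 to 0.27) without it.

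**Figure D2:**
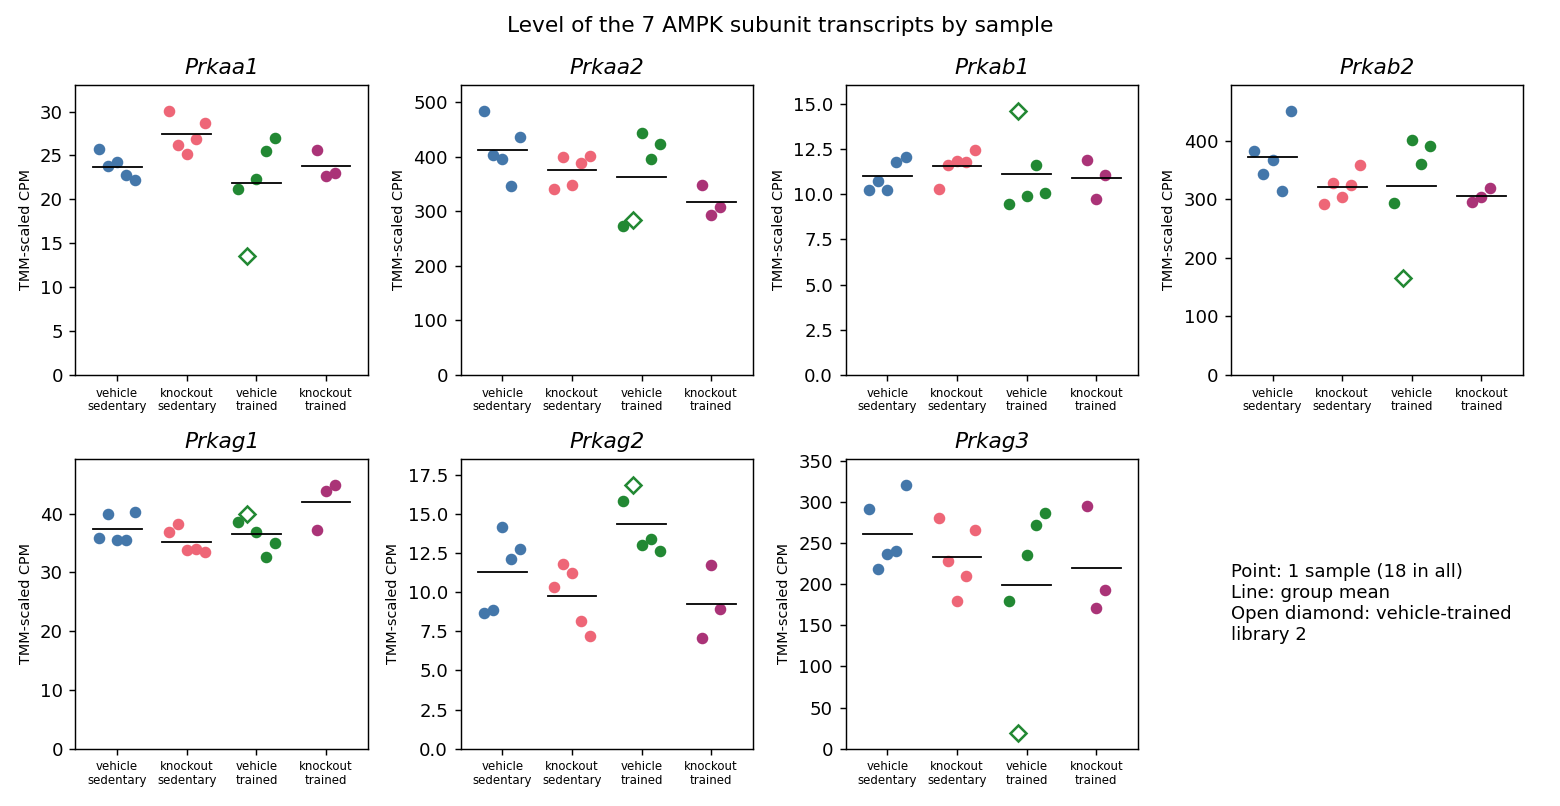
Level of each AMPK subunit transcript (TMM-scaled CPM, axes from 0) by group, with 1 point per sample and a line at the group mean. The open diamond is vehicle-trained library 2, lowest of all samples for Prkag3, Prkab2 and Prkaa1; for Prkag2 the 3 knockout-trained samples lie under all 5 vehicle-trained libraries.

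Across the whole design, edgeR called 0 of the 7 genes in any of the 5 comparisons, at an adjusted p under 0.05 over all 14359 genes. In sedentary muscle the background of calls was 2.33% of genes for the knockout comparison, and 0 of the 7 had an unadjusted p under 0.05 (9.81% of all genes did). Their fitted differences ran from -0.22 to 0.20 log2 units with a median of -0.14, beside a median of 0.01 over all genes. In trained muscle 3.29% of genes were called, and 1 of the 7, Prkag2, had an unadjusted p under 0.05 (17.2% of all genes did). The members' median there was -0.04, beside -0.03 over all genes. With DESeq2 the trained comparison gave 1 call, Prkag2, and limma-voom gave 0 in all 5 comparisons. The 3.29% is from edgeR, and no share of all genes is given here for DESeq2, so that call has no background beside it.

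Training moved none of the 7 past the threshold, and the background of calls was 0% of genes in both training comparisons. In vehicle muscle 0 of the 7, and in knockout muscle 1 of the 7 (Prkag1), had an unadjusted p under 0.05, where 15.2% and 9.71% of all genes did. The members' medians were -0.12 log2 units in vehicle muscle (0.03 over all genes) and -0.09 in knockout muscle (-0.02 over all genes). For the interaction, also with 0% of genes called, the median was -0.07 (-0.02 over all genes) and 1 of the 7, Prkag1 again, had an unadjusted p under 0.05, against 7.49% of all genes. The groups of every member overlapped in the sedentary knockout comparison and in both training comparisons, where 8.68%, 1.87% and 8.64% of all genes did not overlap (8.68%, 3.36% and 8.64% without vehicle-trained library 2). The training comparisons share samples with the knockout comparisons and are not independent of them.

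Without vehicle-trained library 2 the spread shrank and 6.96% and 8.66% of genes were called in the sedentary and trained knockout comparisons, still with 0 of the 7. The members' median was then -0.14 log2 units in the sedentary and -0.15 in the trained knockout comparison, -0.07 and -0.09 for training in vehicle and knockout muscle, and -0.03 for the interaction. The smallest adjusted p among the members was then 0.0856, for Prkag2 in trained muscle. An unadjusted p under 0.05 was then reached by 1 of the 7 in the sedentary (Prkaa1) and 2 in the trained knockout comparison (Prkag1 and Prkag2), where 17.6% and 22.4% of all genes reached it. For training it was reached by 0 in vehicle and 2 in knockout muscle (Prkaa1 and Prkag1), where 13% and 17.5% of all genes reached it, and for the interaction by 1 (Prkag1), where 11.4% did. A change missed by the test is not shown to be absent. Without that library the members' 95% intervals together spanned -0.57 to 0.38 log2 units in the sedentary and -1.02 to 0.42 in the trained knockout comparison. These are the lowest and highest bounds over the 7 genes, not the interval of 1 gene. The Prkag2 interval supplied the lowest bound in both.

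**Figure D3:**
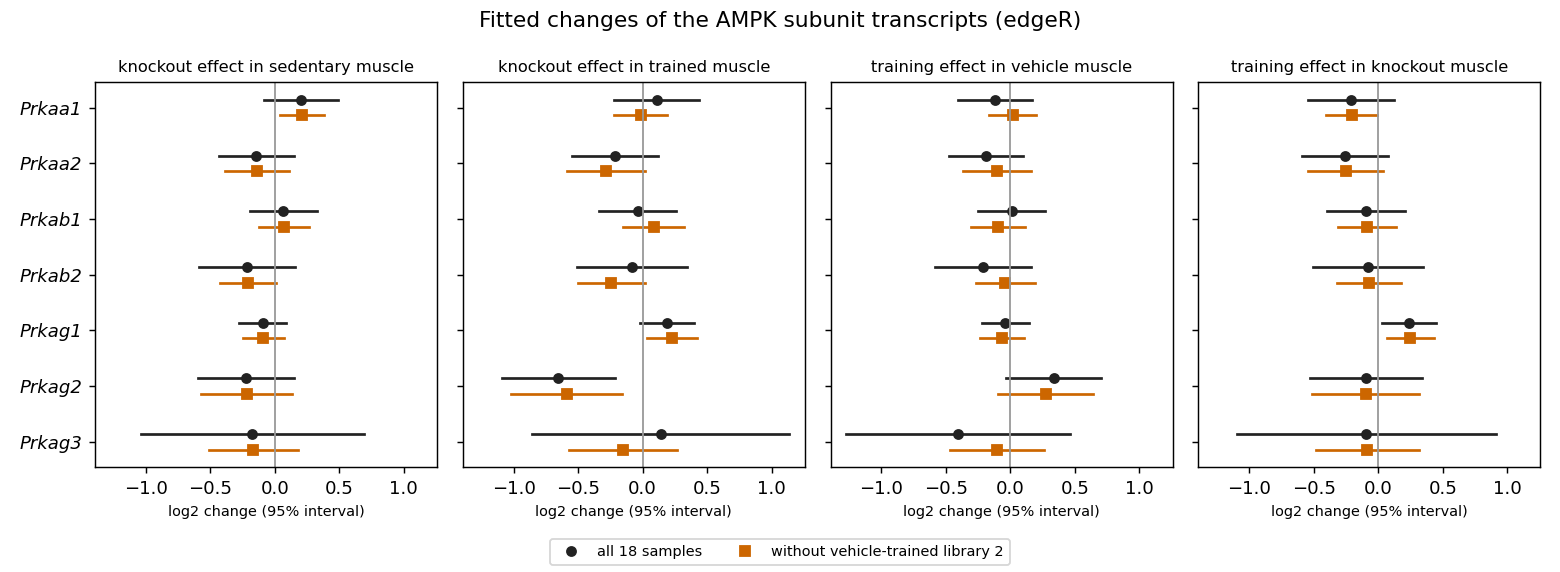
Fitted log2 change with its 95% interval for each AMPK subunit gene in the 4 pairwise comparisons (edgeR). Black circles use all 18 samples and orange squares leave out vehicle-trained library 2; the Prkag3 intervals shorten without it, and Prkag2 in trained muscle lies left of 0 in both (-0.65 and -0.59).

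Vehicle-trained library 2 differed most in Prkag3 among the 7 genes. Its Prkag3 level of 18.9 CPM was 12.9-fold lower than the mean of the other 4 vehicle-trained libraries (243.2 CPM), and only 0.272% of all tested genes had a lower log2 deviation. Prkab2 was 2.19-fold lower than the mean of those libraries (164.8 against 361.6 CPM) and Prkaa1 1.77-fold lower (13.5 against 23.99 CPM). Prkaa2, at 283.8 CPM, stayed within their range of 272.3 to 442.7 CPM, and Prkab1, Prkag1 and Prkag2 were above their ranges (14.6, 40.0 and 16.9 CPM). Prkab1 was 1.42-fold higher than their mean.

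Marker levels moved with these values in that library. Marker sums are in plain CPM, without TMM scaling. The 8 fast type IIb and IIx fibre markers summed to 36420 against 51560 to 62480 in the other 4, and the type IIa marker Myh2 was at 296.1 against 667.5 to 1385. The 8 slow fibre markers, at 549.5, lay within the others' range of 364.1 to 1286. The 6 satellite cell markers summed to 126 against 50.3 to 66.3, and the 8 macrophage markers to 439.5 against 168.4 to 396.1. Lower than in the other 4 were blood (514.1 against 572.3 to 2050), adipocyte (171.6 against 226.3 to 1094) and smooth muscle and pericyte markers (383.5 against 427.6 to 538.7). Schwann cell, endothelial cell and fibroblast markers lay within the others' range. No marker of these lists was at 0 in a whole group, and their part in the subunit levels was not tested.

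As shares of each subunit class per length, Prkaa2 made up 90.98% ± 0.842 of alpha transcripts in vehicle sedentary muscle (SD, n = 5), Prkab2 95.3% ± 0.680 of beta transcripts and Prkag3 78.7% ± 2.67 of gamma transcripts. Prkag1 supplied 19.4% ± 2.52 and Prkag2 1.97% ± 0.488 of the gamma transcripts. So the trimer genes most abundant as RNA were Prkaa2, Prkab2 and Prkag3. In knockout sedentary muscle the shares were 88.9% ± 1.15 for Prkaa2, 94.3% ± 0.253 for Prkab2 and 77.8% ± 3.11 for Prkag3. Only the Prkaa2 share stood apart from the vehicle group, 86.9 to 89.89% against 89.91 to 91.98%, and by a margin far smaller than either range. It restates the ratio of the alpha genes given above.

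In trained muscle the Prkag3 share was 73.3% ± 7.19 in the 3 knockout samples and 70.7 to 81.2% in 4 vehicle libraries. Vehicle-trained library 2 had an inverted gamma class, with Prkag1 at 70.4%, Prkag3 at 19.7% and Prkag2 at 9.97% of gamma transcripts. The alpha class did not follow, since Prkaa2 was at 92.5% there, above the 88.3 to 92.1% of the other 4 libraries. The beta class shifted but was not inverted, with Prkab2 at 87.2% against 94.9 to 96.1%. Transcript shares say nothing of protein, which was not measured here.

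**Figure D4:**
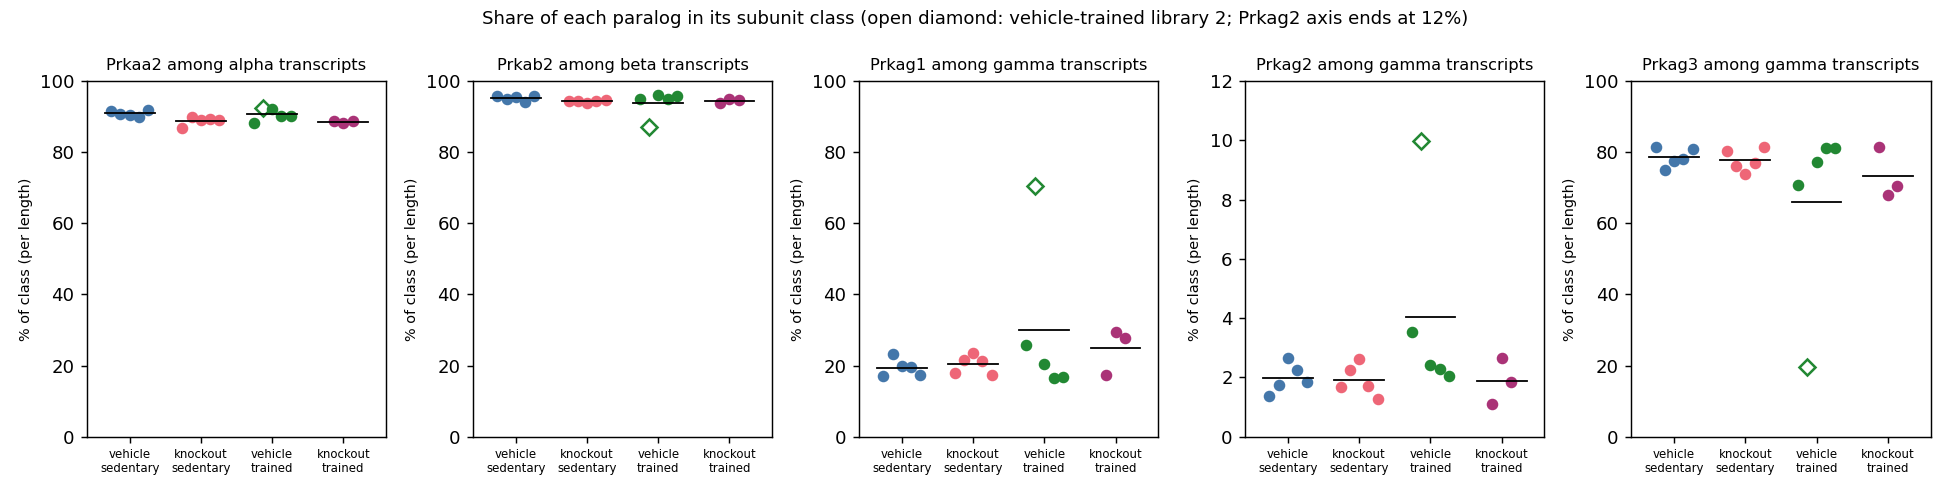
Share of each named paralog in its subunit class (percent of alpha, beta or gamma transcripts per length), with 1 point per sample and a line at the group mean; the Prkag2 axis ends at 12%. In vehicle-trained library 2, the open diamond, Prkag1 holds 70.4% and Prkag3 19.7% of gamma transcripts, while in all other samples Prkag3 holds 67.95 to 81.6%.

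Over the 17 samples without vehicle-trained library 2, Prkaa2 and Prkab2 were the members that tracked each other most closely (Pearson r = 0.809, Spearman rho = 0.887, log2(CPM + 1)). Prkab2 ranked 189 among the 14358 other genes by likeness to Prkaa2, and Prkaa2 ranked 73 by likeness to Prkab2. Prkaa2 and Prkag3 gave r = 0.666 (rho = 0.525), and Prkab2 and Prkag3 gave r = 0.560 (rho = 0.427). Prkaa1 ran opposite to Prkag1 (r = -0.54, rho = -0.57). With vehicle-trained library 2 the order of the pairs differed: r was 0.873 for Prkab2 and Prkag3, 0.862 for Prkaa1 and Prkag3 (0.412 without it), 0.757 for Prkaa2 and Prkab2 and 0.567 for Prkaa2 and Prkag3. These samples share groups and library preparation, so the values describe them and no more.

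The genes most like Prkaa2 were Lman1 (r = 0.944, rho = 0.931), Hipk3 (r = 0.942, rho = 0.939) and Xpot (r = 0.940, rho = 0.912). With vehicle-trained library 2 these fell to r = 0.734, 0.736 and 0.647. Those most like Prkab2 were Ube2g1, Rab10 and Tmem150a (r = 0.930, 0.915 and 0.912, or -0.01, 0.823 and 0.949 with that library). Those most like Prkag3 were Tecpr2, Pik3c2b and Khdc4 (r = 0.909, 0.896 and 0.884, or 0.927, 0.943 and 0.171 with it). The lower members were most like Smchd1 (Prkaa1, r = 0.902), Fpgs (Prkab1, r = 0.847), Bckdk (Prkag1, r = 0.870) and Gpx3 (Prkag2, r = 0.883). With that library Smchd1 fell to r = 0.261, Fpgs to r = -0.06 and Bckdk to r = 0.521, while Gpx3 stayed at r = 0.876.

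The genes around the kinase were read from 5 lists of 95 genes, 92 of them tested: upstream kinases and regulators, direct substrates, transcripts linked to AMPK activation in muscle, AMPK-related kinases, and enzymes of adenine nucleotide and phosphocreatine handling. In sedentary muscle 2 of the 92 (2.17%) passed the test between knockout and vehicle, beside 2.33% of all genes, and both were lower. In trained muscle 6 (6.52%) passed, 3 higher and 3 lower, beside 3.29% of all genes. The lists were chosen with earlier results of these data known. The list shares, here and below, are therefore a description and no test of the lists. Training called 0 of the 92 in vehicle and in knockout muscle, and the interaction called 0 (edgeR). In vehicle muscle an unadjusted p under 0.05 was reached by 3 of 20 regulators, 5 of 30 substrates, 3 of 14 activation-linked genes, 3 of 12 related kinases and 2 of 16 nucleotide and phosphocreatine genes, beside 15.2% of all genes. In knockout muscle the same counts were 2, 1, 0, 0 and 1 (9.71% of all genes), and for the interaction 1, 2, 0, 2 and 5 (7.49% of all genes).

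Of the 20 upstream kinases and regulators, 1 was called in each knockout comparison, lower both times. It was Fnip1, whose protein binds folliculin and AMPK. It was at 164.3, 142.6, 153.9, 116.6 and 161.2 CPM in vehicle sedentary and at 80.5, 85, 87.6, 90.8 and 95.8 CPM in knockout sedentary libraries. The groups did not overlap, as in 8.68% of all genes, and the fitted change was -0.75 log2 units (SE 0.115, edgeR adjusted p = 0.000809). In trained muscle Fnip1 was at 94.2, 130.4, 139.9, 116.9 and 134.1 CPM in vehicle libraries and at 66.2 to 67.9 CPM in the 3 knockout samples (-0.88, SE 0.136, adjusted p = 0.00118, or 0.136 when the 2 trained groups were fitted alone). The median change of the list was -0.03 in sedentary and -0.08 in trained muscle (-0.02 and 0.09 without vehicle-trained library 2), beside 0.01 and -0.03 over all genes (0.02 and 0.0047 without it). An unadjusted p under 0.05 (edgeR) was reached by 2 and 7 of the 20, beside 9.81% and 17.2% of all genes.

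Of the 30 direct substrates, Tbc1d1 was called in both knockout comparisons. It encodes a Rab GTPase-activating protein that AMPK phosphorylates in the control of glucose transporter traffic. Its levels were 106.9, 89.97, 62.7, 78.4 and 74.6 CPM in vehicle sedentary and 18.4, 27.9, 33.1, 26.6 and 27.5 CPM in knockout sedentary libraries. Each vehicle library was above each knockout library, and the fitted change was -1.64 log2 units (SE 0.222, edgeR adjusted p = 0.000224). In trained muscle vehicle libraries were at 65.7, 37.8, 105.5, 73.7 and 82.8 CPM and knockout samples at 20.1 to 26.7 CPM (-1.69, SE 0.268, adjusted p = 0.00146, or 0.103 when the 2 trained groups were fitted alone). Vehicle-trained library 2 was the lowest vehicle library here too, and still above the knockout samples. The list's medians were 0.0076 and -0.04 log2 units (0.01 and 0.08 without that library). In sedentary and trained muscle 3 and 6 of the 30 had an unadjusted p under 0.05 (edgeR), beside 9.81% and 17.2% of all genes.

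Mtfr1l, an AMPK substrate at mitochondria, was the other substrate called in trained muscle, higher in knockout (147.8 ± 11.5 CPM, n = 3) than in vehicle libraries (112 ± 13.6 CPM, n = 5), by 0.39 log2 units (adjusted p = 0.0473). That call was kept in 9 of 27 alternative analyses and lost in 18. Among those 18 were the fits without any 1 sedentary library and without vehicle-trained library 3, 4 or 5. Others were without knockout-trained library 2 or libraries 3 and 5 (0.34 to 0.42 log2 units over these left-out fits), and with the 2 trained groups fitted alone. Of the 14 transcripts linked to AMPK activation, 4 in the sedentary and 7 in the trained knockout comparison had an unadjusted p under 0.05 (edgeR). Of all genes 9.81% and 17.2% did. The list's medians were 0.05 and 0.36 log2 units (0.06 and 0.25 without vehicle-trained library 2), beside 0.01 and -0.03 over all genes. Fabp3, which carries fatty acids in the cytosol, was higher in trained knockout muscle (531.9 ± 107.5 against 240.8 ± 103.3 CPM, 1.13 log2 units, edgeR adjusted p = 0.025). Hk2, the muscle hexokinase, was lower (228.9 ± 24.98 against 719.9 ± 638.3 CPM, -1.67, adjusted p = 0.0391). The vehicle mean was raised by vehicle-trained library 2, at 1854 CPM against 320 to 516.6 CPM in the other 4, and without it Hk2 was -0.93 (adjusted p = 0.00137). The Fabp3 call was lost with the 2 trained groups fitted alone (adjusted p = 0.362) and without vehicle-trained library 5 (adjusted p = 0.0553), knockout-trained library 2 (0.0750) or libraries 3 and 5 (0.154). The Hk2 call was lost with the 2 trained groups fitted alone (adjusted p = 0.469) and without any of 8 sedentary libraries (adjusted p = 0.0507 to 0.0542) or any of the 3 knockout-trained samples (0.0910 to 0.160).

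Of 12 tested AMPK-related kinases 0 were called in either knockout comparison (edgeR), with 2 in sedentary and 4 in trained muscle at an unadjusted p under 0.05, beside 9.81% and 17.2% of all genes. Of 16 tested nucleotide and phosphocreatine genes, 0 were called in sedentary muscle, with 1 at an unadjusted p under 0.05 (9.81% of all genes). In trained muscle 8 of these 16 had an unadjusted p under 0.05 (edgeR), beside 17.2% of all genes. The list's medians were 0.12 in sedentary and 0.19 log2 units in trained muscle, beside 0.01 and -0.03 over all genes. Without vehicle-trained library 2 they were 0.12 and 0.24. The 1 gene called in trained muscle was Gatm, which makes the creatine precursor guanidinoacetate (9.94 ± 0.948 against 4.25 ± 1.34 CPM, 1.21 log2 units, edgeR adjusted p = 0.0375). That call was lost with the 2 trained groups fitted alone (adjusted p = 0.161) and without vehicle sedentary library 3 (adjusted p = 0.0512), vehicle-trained library 3 or 4 (0.0700 and 0.0726) or any of the 3 knockout-trained samples (0.0605 to 0.145).

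Without vehicle-trained library 2 the calls rose to 10 of 92 (10.9%) in sedentary and 13 of 92 (14.1%) in trained muscle, beside 6.96% and 8.66% of all genes. Fnip1, Tbc1d1, Mtfr1l, Fabp3, Hk2 and Gatm remained called in trained muscle, and Fnip1 and Tbc1d1 in sedentary muscle. Added in sedentary muscle were Hk2 (-0.998), Ppargc1a (-0.54), a transcriptional coactivator of mitochondrial genes, the kinases Snrk (-0.40) and Sik3 (-0.32), and Cab39 (-0.32), a partner of the upstream kinase LKB1, all lower. Sesn1 (0.42), Sesn3 (0.65) and Ampd1 (0.65), the muscle AMP deaminase, were higher. Added in trained muscle were Mlycd (0.71), Pnpla2 (0.68), Cycs (0.46), Ckmt2 (0.82), Ampd1 (0.62) and Stradb (0.33), all higher, and Sik2 (-0.54), lower. Sik2 was also the 1 of the 92 called for training in knockout muscle (-0.54, edgeR adjusted p = 0.0479, 1.09% beside 0.843% of all genes).

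**Figure D5:**
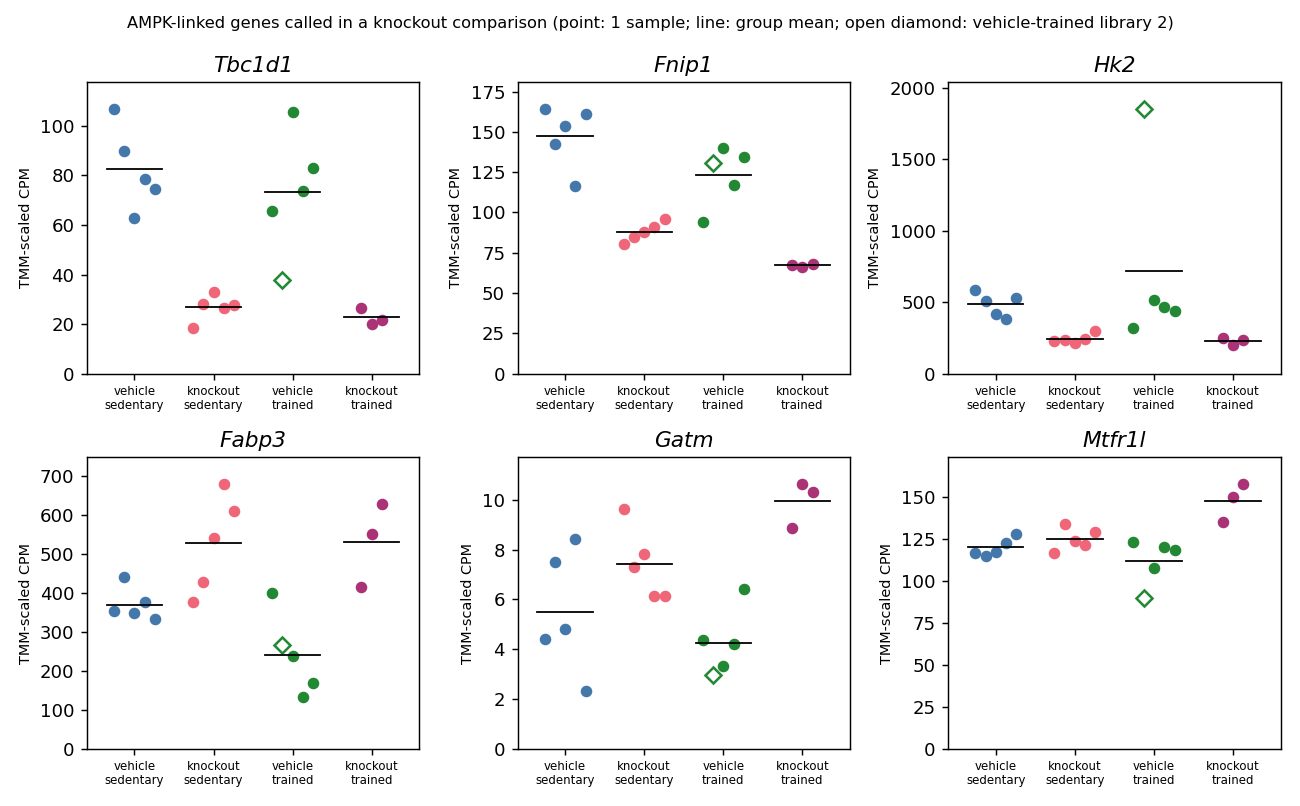
Level of the 6 AMPK-linked genes called in a knockout comparison with all 18 samples (TMM-scaled CPM, axes from 0), with 1 point per sample, a line at the group mean and an open diamond for vehicle-trained library 2. Tbc1d1 and Fnip1 are lower in every knockout sample than in every vehicle library of the same training state; Hk2 reaches 1854 CPM in vehicle-trained library 2.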

How the data were processed

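The deposited table holds estimated counts per gene, as the values show: the columns the authors deposited are named CPM but sum to 10610333 to 19153527, and 72.0% of the values are whole. Per the submitters' processing notes, Partek, STAR 2.7.8a, DESeq2, mm10 and GRCm39 were used, with no roles. The quantification program, annotation and strandedness are not given in the sources used here, so coordinates are from reference annotations of GRCm38 only.

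Estimated counts were rounded. Pairs of libraries whose noise ratio (variance within the pair at high over low counts) was under 1.5 were summed as 1 sample (2 of 190 pairs). Genes that reached a CPM of 1 in 5 or more of the 20 libraries were tested with edgeR 4.0.16 (R 4.3.3), quasi-likelihood, TMM scaling, 4 group means, two-sided, with Benjamini-Hochberg adjustment over all tested genes and a threshold of 0.05. The procedure was tested on simulated data, with changes larger than any fitted for the members and with no outlying library. It does not show how well changes as small as theirs are found. DESeq2 1.42.0, limma-voom (limma 3.58.1), other scalings, filters, lengths and left-out libraries were alternatives. Per-length values used exon lengths of GENCODE M21, found for 21774 genes. TMM-scaled CPM of summed pairs were averaged.

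The members and gene lists were chosen with earlier results of these data known. List genes were named if called with or without vehicle-trained library 2, at most 6 per list and comparison. The 3 genes most like each member were ranked by Pearson r of log2(CPM + 1) without that library, and the first of the 3 is named for the 4 less abundant members.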

Additional observations from a re-analysis of the deposited data

Results flagged for a closer look

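In 5 of 54 groups of 5 samples examined, 1 sample lay farther from the rest than Dixon's limit for 5 samples allows, and in all 5 it was vehicle-trained library 2. Chance gives about 1 in 20 such groups, and the 5 values come from 1 library and are partly shares of the same sum. In that library Prkag1 held 70.4% of gamma subunit transcripts per length (16.5 to 25.7% in the other 4 vehicle-trained libraries), Prkag2 held 9.97% (2.04 to 3.55%) and Prkag3 held 19.7% (70.7 to 81.2%). Prkab2 held 87.2% of beta subunit transcripts (94.9 to 96.1%). Hk2 was at 1854 TMM-scaled CPM (320 to 516.6).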

How the results depend on the processing

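The count of AMPK subunit genes called stayed at 0 in every comparison and alternative except for the knockout comparison in trained muscle. There it was 1, Prkag2, with DESeq2 (adjusted p = 0.0401), with the 20 libraries taken as separate (1, adjusted p = 0.0194) and with the replicate block on 20 separate libraries (1, adjusted p = 0.0298). The replicate numbers share only a number: 11 of 30 same-numbered pairs had a correlation over 0.1 (-0.394 to 0.351), 5 of 20 libraries correlated best with their own number, and the block changed no other member's call. Taking libraries as separate adds samples by construction. Otherwise the cause was not tested. The share of all genes called in each of these settings is not given here, only the range over all alternatives that follows. Over all genes, calls ranged from 251 to 1177 (334 as reported) for the sedentary knockout comparison, highest with the 2 groups fitted alone, and from 20 (2 groups alone) to 1244 (without vehicle-trained library 2; 473 as reported) for the trained one. They ranged from 0 to 15 and from 0 to 397 for training in vehicle and knockout muscle (397 without knockout-trained libraries 1 and 4), and from 0 to 26 for the interaction.

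Some log2 values near 0 changed sign, none of them called on either side except Pnpla2 without vehicle-trained library 2 (0.68). In trained muscle, knockout against vehicle, Prkab1 was 0.016 with upper-quartile scaling and 0.0057 with the replicate block, and Pnpla2 was 0.25 with limma-voom, 0.052 with upper-quartile scaling and 0.16 with the replicate block. For training in vehicle muscle, Prkab1 was -0.0047 with limma-voom, -0.049 with upper-quartile scaling and -0.0012 with no filter. With each library left out in turn, the ranges for knockout against vehicle in trained muscle were Prkaa1 -0.013 to 0.20, Prkab1 -0.092 to 0.086, Prkag3 -0.15 to 0.31, Pnpla2 -0.22 to 0.68 and Prkab2 -0.24 to 0.014. For training in vehicle muscle they were Prkab1 -0.098 to 0.065, Prkaa1 -0.21 to 0.017 and Prkag1 -0.068 to 0.0057. For training in knockout muscle they were Prkag3 -0.17 to 0.071, while over all alternatives its lowest value there was -0.355. For the interaction of training and knockout they were Prkab1 -0.16 to 0.014, Prkab2 -0.032 to 0.23 and Prkaa2 -0.16 to 0.013. Without knockout-trained libraries 1 and 4, Prkag3 was -0.13 for knockout against vehicle in trained muscle and Prkag2 was 0.077 for training in knockout muscle, and without libraries 3 and 5 Prkag3 was 0.0028 for the latter. Prkag2 and Prkab1 had the fewest counts, from 71 and 111 estimated counts per library upwards. Group mean levels and shares were compared with alternatives too, the shares also with the longest transcript as gene length. Of these, 1 level and 9 shares moved by an SD of the group or more, and 181 and 173 did not.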
